A study of Mus musculus with 6 samples.

Results

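The unfolded protein response regulators measured here are 10 mouse genes, Xbp1, Atf4, Atf6, Ddit3, Trib3, Herpud1, Sdf2l1, Creld2, Manf and Edem1. All probe sets annotated to exactly 1 gene symbol were taken where that symbol was one of the 10, which gave 21 probe sets for 10 genes, of 45037 probe sets and 18193 genes in all. A probe set is a group of short probes on an Affymetrix array that reports on 1 transcript or a few related transcripts. Xbp1 had 4 probe sets, Atf4 and Atf6 had 3 each, Ddit3, Trib3, Herpud1 and Edem1 had 2 each, and Sdf2l1, Creld2 and Manf had 1 each. Levels are the authors' log2 values, on which a step of 1 is a doubling, and every difference is the daDREAM mean minus the wild-type mean with its 95% confidence interval.

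The tissue was whole cerebellum, dissected and frozen, from wild-type mice and from transgenic mice that carry daDREAM, with 3 independent biological replicates of each genotype and 1 array per replicate. DREAM, the product of Kcnip3, is a calcium-binding protein that represses transcription, and daDREAM is a dominant active form whose repression is not relieved by calcium. The sources used here do not give the promoter that drives the transgene, the cells that carry it, or the strain, age and sex of the mice. Neither genotype is labelled with a drug, an injury or an agent that stresses the endoplasmic reticulum, so the comparison is of unchallenged tissue as far as the labels go. Because each array is a piece of bulk tissue, fewer cells of a type and less RNA per cell cannot be told apart in any value given here.

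The unfolded protein response is the programme a cell runs when unfolded proteins gather in the endoplasmic reticulum. The sensor IRE1 (Ern1) splices the Xbp1 message so that it encodes an active transcription factor, the sensor PERK (Eif2ak3) phosphorylates eIF2α and thereby favours translation of Atf4, and ATF6 travels to the Golgi, where the proteases encoded by Mbtps1 and Mbtps2 release the transcription factor. The first steps of all these arms act on proteins or on splicing, which a level of total transcript does not report. The target genes are read out at the transcript level: Ddit3 (CHOP) and Trib3 on the PERK arm, and Herpud1, Sdf2l1, Creld2, Manf and Edem1 among the genes that serve folding and clearance in the endoplasmic reticulum. The last group are effectors more than regulators. DREAM protein has been described as a binding partner of ATF6, which is the tie between this pathway and the transgene.

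The pathway's factors act through short DNA elements, and the stretches below show where such elements lie just before the start of genes whose levels are given further on. The 250 bases before each start were searched on both strands in RefSeq promoters of the mouse build GRCm38.p6, which held 8 of the 10 genes. Atf6 and Manf had no entry. The endoplasmic reticulum stress element (ERSE), used by ATF6 and XBP1, was searched as CCAAT, 9 bases of any kind and CCACG, and stood in 0.113% of all 32851 promoters. The related ERSE-II was searched as ATTGG, 1 base of any kind and CCACG, and stood in 0.0304%. The C/EBP-ATF element, used by ATF4 with a C/EBP partner such as CHOP, was searched as TGATGNAA and stood in 3.45%. The XBP1 element TGACGTGG stood in 0.563%. Of the 8 genes, only Creld2 held an ERSE and only Herpud1 held an ERSE-II and a C/EBP-ATF element, while none held the XBP1 element. Hspa5, the chaperone BiP and the best known ERSE gene, is shown beside them. Each line runs 5′ to 3′ on the gene's own strand, which is the plus strand for all, and the capitals mark the element. They lie at chr2:34771995-34772073 (Hspa5), chr15:88819490-88819568 (Creld2, with the element on the opposite strand), chr8:94386347-94386417 (Herpud1, ERSE-II) and chr8:94386287-94386354 (Herpud1, C/EBP-ATF element on the opposite strand).
Hspa5 ERSE: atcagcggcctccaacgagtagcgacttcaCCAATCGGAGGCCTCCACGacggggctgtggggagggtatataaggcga
Creld2 ERSE: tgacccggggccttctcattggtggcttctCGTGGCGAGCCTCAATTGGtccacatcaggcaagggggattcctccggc
Herpud1 ERSE-II: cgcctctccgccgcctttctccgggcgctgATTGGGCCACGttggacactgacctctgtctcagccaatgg
Herpud1 C/EBP-ATF element: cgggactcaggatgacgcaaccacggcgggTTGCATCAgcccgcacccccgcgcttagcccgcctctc
These matches are letters in a window, not measured binding. In Herpud1 the C/EBP-ATF element began 112 bases and the ERSE-II 52 bases before the start.

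The arrays agreed in their medians, which lay between 5.12 and 5.23. Cerebellar neuron markers were bright, as Pcp2, a Purkinje cell gene with means of 12.41 in wild type and 12.46 in daDREAM, and 9 of the 11 measured markers had a lower mean in daDREAM, with a median difference of −0.04. Markers of the choroid plexus, a neighbouring secretory tissue, were higher in daDREAM in 12 of 12, and the list averaged 5.44 to 5.71 on wild-type arrays and 5.87 to 6.06 on daDREAM arrays. Markers of plasma and B cells, which have high Xbp1, averaged 4.05 to 4.67 over the 4 measured in daDREAM, a range that held the wild-type arrays. The spiked-in hybridization controls, which carry no mouse RNA, also differed: their 18 probe sets averaged 8.99, 8.99 and 9.48 on wild-type arrays and 9.47, 10.14 and 10.47 on daDREAM arrays (two-sided exact permutation p = 0.2, where the smallest possible is 0.1). The part of either in the results that follow was not tested, beyond the values given beside them.

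None of the regulators changed with the genotype past the threshold. Of their 21 probe sets, 0 reached an adjusted p of 0.05 in limma, against 0% of all probe sets, and the smallest adjusted p was 0.998. At an unadjusted p under 0.05 there were 2, against 1.81% of all probe sets, and both belong to Xbp1, 1 lower (background 0.706%) and 1 higher (background 1.11%) in daDREAM. That count was 5 without daDREAM replicate 1, where the share of all probe sets was also higher, at 16.1%, and 3 without wild-type replicate 3, where it was 2.78%. It was 0 without any one of the other arrays, with 0.719% to 2.35% of all probe sets. The means of 10 probe sets were lower and those of 11 higher in daDREAM, beside 47.3% lower and 51.8% higher among all. With the brightest probe set of each gene, 5 regulators were lower and 5 higher, beside 48% and 51.2% of all genes, and without wild-type replicate 3 the counts were 7 and 3. The median difference of the 10 genes was −0.0033 and that of all genes 0.0067. On no probe set did the genotypes separate (0 of 21), against 6.01% of all probe sets. The standard errors ran from 0.12 to 0.35 on the log2 scale, with a median of 0.18 beside 0.15 for all probe sets.

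**Figure D1:**
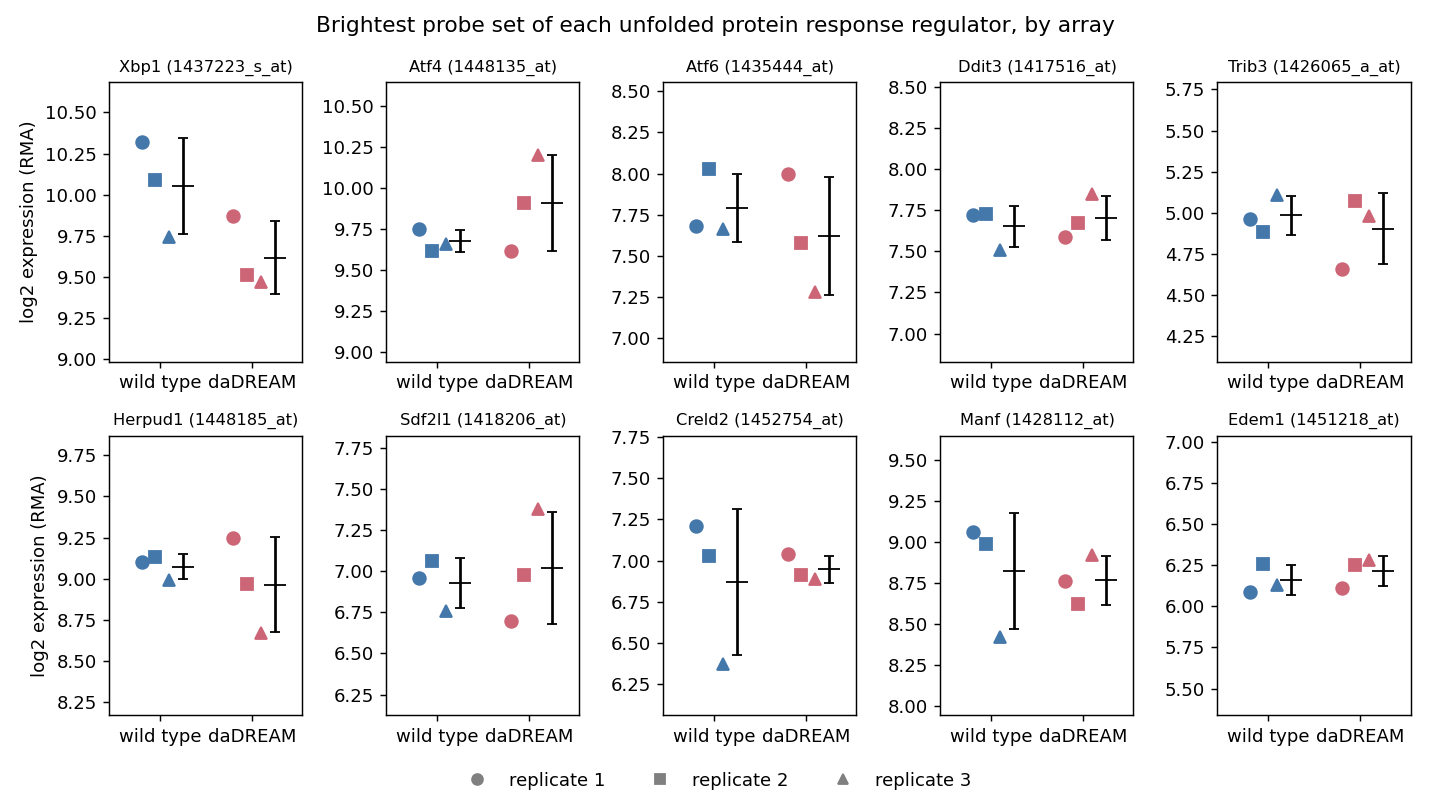
Log2 level of the brightest probe set of each regulator on each array, by genotype, with points for arrays and bars for group means. The arrays of the genotypes overlap for all 10 genes, and wild-type replicate 3 is the lowest wild-type array for 7 of them.

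Xbp1 encodes the transcription factor that IRE1 activates, and it turns on chaperone, secretion and degradation genes. Its brightest probe set, 1437223_s_at, read 10.32, 10.09 and 9.74 in wild-type replicates 1, 2 and 3, and 9.87, 9.51 and 9.47 in daDREAM. Wild-type replicate 3 fell below daDREAM replicate 1, so the groups overlapped. The means were 10.05 ± 0.29 and 9.62 ± 0.22 (SD, n = 3 each), a difference of −0.43 (−0.85 to −0.02), or 0.741-fold. In limma the unadjusted p was 0.0439 and the adjusted p was 0.998.

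The other Xbp1 probe sets did not give this picture. On 1420886_a_at, the next brightest, the levels were 9.94, 9.72 and 9.42 in wild type and 9.83, 9.27 and 9.69 in daDREAM, a difference of −0.10 (−0.53 to 0.34). On 1420011_s_at the difference was −0.06 (−0.61 to 0.49). Both had daDREAM replicate 1 near the top of all arrays and replicate 2 at the bottom. The dim probe set 1420012_at went the other way, with 5.46, 5.11 and 5.81 in wild type and 5.65, 5.97 and 6.23 in daDREAM. Its difference was 0.49 (0.0020 to 0.98), or 1.40-fold, with an unadjusted limma p of 0.0493 and an adjusted p of 0.998. The 4 Xbp1 probe sets thus gave 3 differences below 0 and 1 above, and the pair at an unadjusted p under 0.05 had opposite signs. Their mean differed by −0.025. On 1420886_a_at and 1420011_s_at the sign turned without wild-type replicate 1 (0.027 and 0.10) and without daDREAM replicate 2 (0.067 and 0.18). Which splice forms of Xbp1 each probe set reports was not tested.

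**Figure D2:**
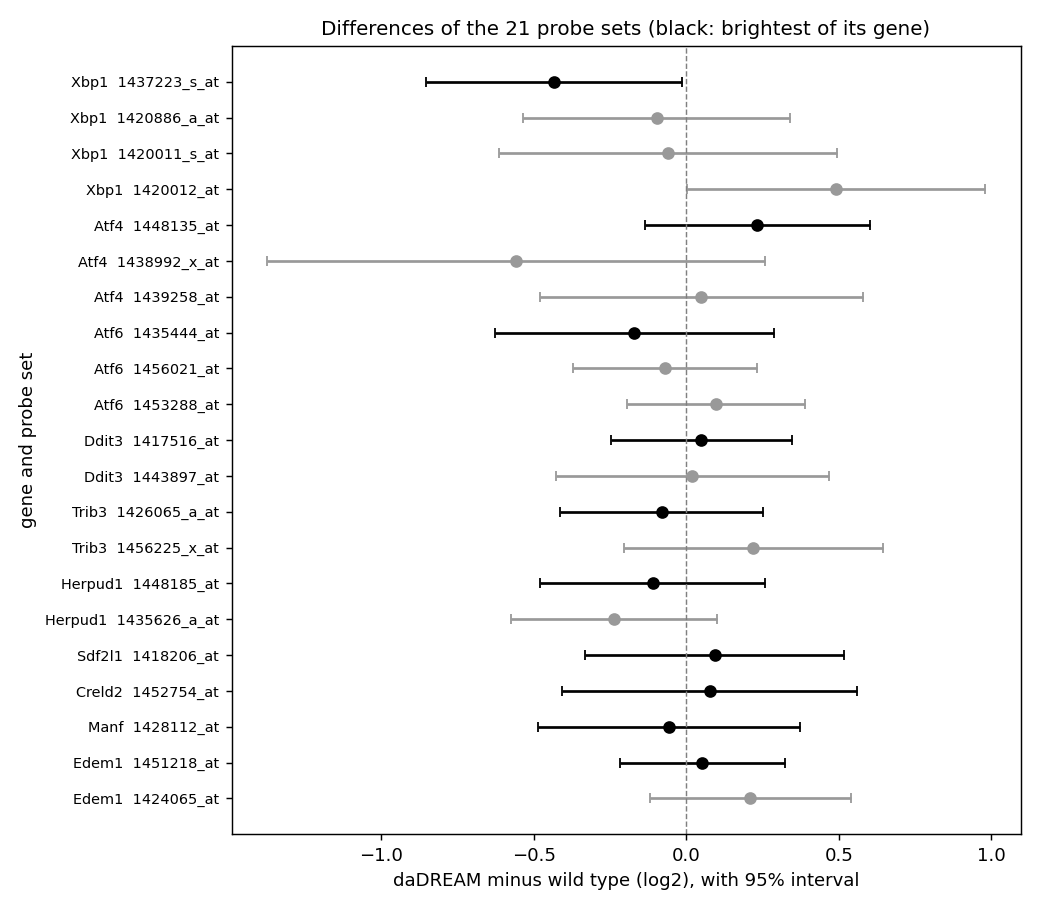
Difference of each of the 21 regulator probe sets, daDREAM minus wild type on the log2 scale, with the 95% confidence interval from limma. The intervals of 19 include 0, and the remaining pair, both from Xbp1, lie on opposite sides of it.

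Atf4 encodes the transcription factor of the PERK arm, which is controlled mainly through translation and drives amino acid synthesis and transport genes. Its brightest probe set, 1448135_at, read 9.75, 9.62 and 9.66 in wild type and 9.62, 9.91 and 10.20 in daDREAM. The wild-type arrays lay close together, daDREAM replicate 3 was the highest of all, and daDREAM replicate 1 was as low as the lowest wild-type array. The difference was 0.23 (−0.14 to 0.60), from means of 9.68 ± 0.07 and 9.91 ± 0.29, and 0.088 without daDREAM replicate 3 or 0.38 without daDREAM replicate 1. The probe set 1438992_x_at, of a class in which some probes also match other sequences, went the opposite way, with 6.40, 6.0 and 5.99 in wild type and 6.49, 5.24 and 4.99 in daDREAM. It had the largest difference of the 21 in size, −0.56 (−1.37 to 0.26), and also the largest standard error. Here daDREAM replicate 1 lay above all wild-type values and replicates 2 and 3 below them. Without daDREAM replicate 1 that difference was −1.01, with an unadjusted limma p of 0.00022 and an adjusted p of 0.215, in a fit in which 7254 of all 45037 probe sets had an unadjusted p under 0.05. The remaining, dim probe set, 1439258_at, differed by 0.05 (−0.48 to 0.58).

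Atf6 encodes the membrane-bound factor that is cut in the Golgi and that has been described as binding DREAM. Its brightest probe set, 1435444_at, read 7.68, 8.03 and 7.66 in wild type and 8.0, 7.58 and 7.28 in daDREAM. Here daDREAM replicate 1 lay near the highest wild-type array while replicates 2 and 3 lay below all wild-type arrays. The difference was −0.17 (−0.63 to 0.29), from means of 7.79 ± 0.21 and 7.62 ± 0.36. It rested on single arrays: it was 0.0 without daDREAM replicate 3, −0.05 without wild-type replicate 2 and −0.36 without daDREAM replicate 1. The other Atf6 probe sets differed by −0.07 (−0.37 to 0.23) and, on one that was dim, by 0.10 (−0.19 to 0.39).

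Ddit3 and Trib3 lie downstream of ATF4. Ddit3 encodes CHOP, a transcription factor that promotes cell death under prolonged stress, and Trib3 encodes a pseudokinase that CHOP induces. Ddit3 probe set 1417516_at read 7.72, 7.73 and 7.51 in wild type and 7.59, 7.67 and 7.85 in daDREAM, a difference of 0.05 (−0.25 to 0.35). The arrays of both genotypes covered nearly the same range, and the second Ddit3 probe set differed by 0.02 (−0.43 to 0.47). Trib3 was dim on both of its probe sets. On 1426065_a_at it read 4.96, 4.88 and 5.11 in wild type and 4.66, 5.07 and 4.98 in daDREAM, a difference of −0.08 (−0.41 to 0.25), and on 1456225_x_at the difference was 0.22 (−0.21 to 0.65). Dim values on these arrays have no detection call, so no statement can be made on whether Trib3 was above background.

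Herpud1 and Edem1 serve the clearance of misfolded proteins. Herpud1 encodes a membrane protein that helps assemble the degradation complex, and its 2 probe sets were of like sign. On 1448185_at it read 9.10, 9.13 and 8.99 in wild type and 9.25, 8.97 and 8.67 in daDREAM, a difference of −0.11 (−0.48 to 0.26). On 1435626_a_at it read 8.54, 8.51 and 8.18 in wild type and 8.35, 8.12 and 8.05 in daDREAM, a difference of −0.24 (−0.58 to 0.10). On the first of these, daDREAM replicate 1 was the highest of all arrays, and without daDREAM replicate 3 the difference was 0.04. Herpud1 is the gene whose ERSE-II and C/EBP-ATF element are printed above. Edem1 encodes a lectin-like protein that extracts glycoproteins for degradation. On 1451218_at it read 6.09, 6.26 and 6.13 in wild type and 6.11, 6.25 and 6.28 in daDREAM, a difference of 0.05 (−0.22 to 0.32), and its dim second probe set differed by 0.21 (−0.12 to 0.54).

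Sdf2l1, Creld2 and Manf encode soluble proteins of the endoplasmic reticulum: a partner of the BiP chaperone cycle, a protein with disulfide exchange activity, and a secreted factor that protects neurons. Sdf2l1 read 6.96, 7.06 and 6.76 in wild type and 6.70, 6.98 and 7.38 in daDREAM, a difference of 0.09 (−0.33 to 0.52). The highest and the lowest array were both daDREAM, and without replicate 3 of that genotype the difference was −0.09. Creld2, whose ERSE is printed above, read 7.21, 7.03 and 6.37 in wild type and 7.04, 6.91 and 6.89 in daDREAM, a difference of 0.08 (−0.41 to 0.56). Manf read 9.06, 8.99 and 8.42 in wild type and 8.76, 8.62 and 8.92 in daDREAM, a difference of −0.06 (−0.49 to 0.37). Wild-type replicate 3 was the lowest of all arrays for both Creld2 and Manf. It widened the wild-type range to 0.84 for Creld2 and 0.64 for Manf, against 0.15 and 0.30 in daDREAM. Without that array the differences were −0.17 and −0.26.

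The order of the arrays within a genotype was compared with that over all genes. Wild-type replicate 3 was the lowest wild-type array for 7 of the 10 regulators, against 39.9% of all genes, and for 12 of their 21 probe sets, against 35.7% of all probe sets. Among daDREAM arrays, replicate 1 was the lowest for 50% of the regulators and the highest for 40%, near the 43.8% and 39.2% of all genes. Replicate 2 was the lowest for 10% and the highest for 10%, beside 16.4% and 22.5% of all genes. Atf4, Ddit3, Sdf2l1 and Edem1 were highest in daDREAM replicate 3 and lowest in replicate 1. Xbp1, Atf6, Herpud1 and Creld2 ran the other way round, and Trib3 and Manf had neither order. The hybridization controls had the order of Atf4 on daDREAM arrays, lowest in replicate 1 and highest in replicate 3. With their level as a covariate in limma, 8 of the 10 regulator differences changed sign, Xbp1 to 0.04, Atf4 to −0.13 and Atf6 to 0.38 among them. That level and the genotype partly go together on these arrays.

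**Figure D3:**
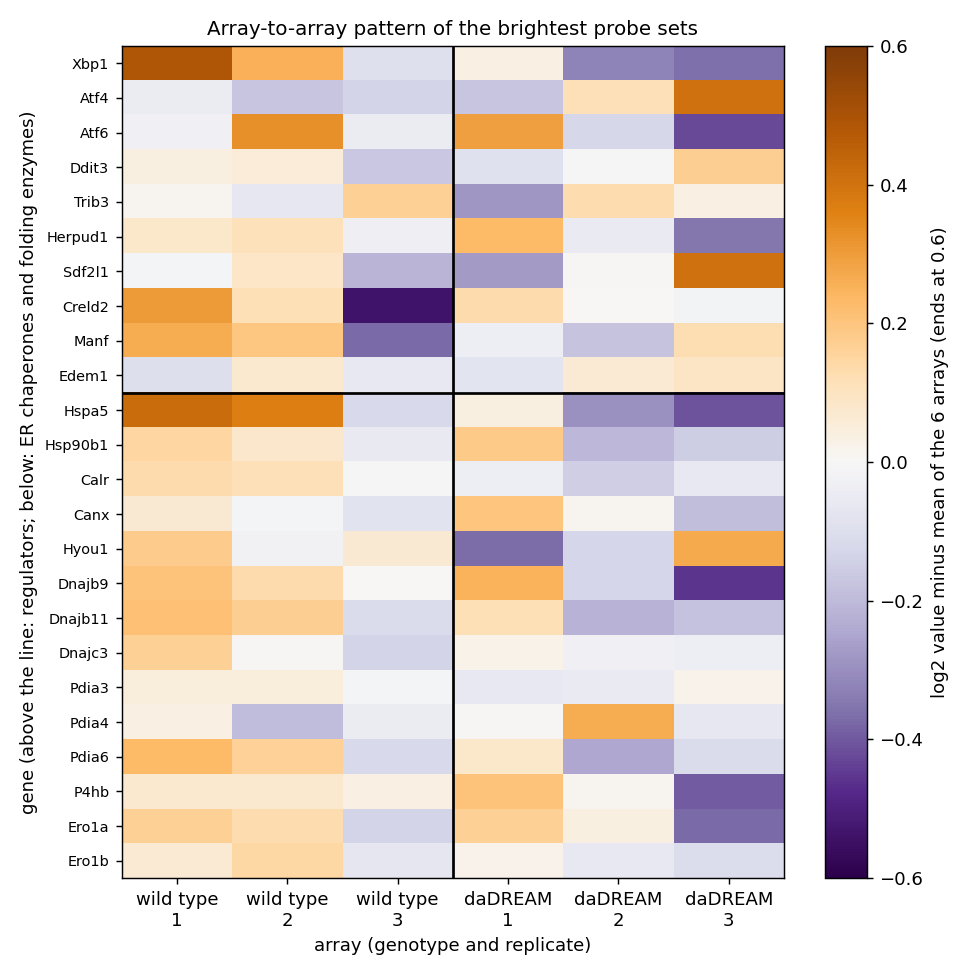
Deviation of each gene's brightest probe set from its mean over the 6 arrays, on the log2 scale, by array. The regulators are above the line, and the chaperones and folding enzymes of the endoplasmic reticulum are below it. Wild-type replicate 3 is low for Creld2 and Manf. For every regulator daDREAM replicates 1 and 3 deviate in opposite directions, most widely for Atf4, Atf6, Herpud1 and Sdf2l1.

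Other genes of the pathway were taken from 5 lists, of which 61 of 64 genes had a probe set with 1 symbol. None passed the adjusted threshold in limma (0 of 61, against 0% of all genes), 1 had an unadjusted p under 0.05 (background 1.42%, and 0.473% in its direction, lower, with 0.951% higher), and 5 had groups that did not overlap (background 5.59%). The 61 divided into 38 lower and 23 higher in daDREAM, with a median of −0.06, beside 48% lower among all genes. This balance turned to 26 lower and 34 higher without daDREAM replicate 3, and to 12 lower and 49 higher with the mean of the hybridization controls as a covariate. After renewed quantile normalization it was 32 lower and 29 higher. With a minimum mean level of 5 it was 36 lower and 22 higher of 58, beside 53.5% lower among all genes at that level.

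The stress sensors and the proteases that activate ATF6 gave 4 lower and 2 higher of 6 measured. Without daDREAM replicate 3 they were 1 lower and 5 higher, and with the mean of the hybridization controls as a covariate all 6 were higher. Ern1, the sensor IRE1 upstream of Xbp1, differed by −0.15, with 7.03, 6.66 and 5.86 on the daDREAM arrays, a spread that exceeded the difference, which was 0.18 without daDREAM replicate 3. The other Ern1 probe sets differed by −0.15, −0.093, 0.037 and −0.027. Eif2ak3, the sensor PERK upstream of Atf4, differed by −0.06, while 0.11 and 0.10 were measured on its remaining probe sets, which were dim. Mbtps2, which cuts ATF6, differed by −0.31, but by −0.033 without daDREAM replicate 3 and by −0.61 without daDREAM replicate 1. Traf2, an adaptor that binds IRE1, differed by 0.23, and Atf6b, the paralog of Atf6, by 0.14.

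Chaperones and folding enzymes of the endoplasmic reticulum, the classic targets of ATF6 and XBP1, were lower in daDREAM in 12 of 14, with a median of −0.12 beside 0.0067 for all genes, and none passed the adjusted threshold. All 14 had a mean level of at least 5, and of all genes at that level 53.5% were lower, with a median of −0.013. The median of the 14 was −0.064 without daDREAM replicate 3, with 10 lower and 4 higher, and −0.20 without daDREAM replicate 1. Hspa5 was the 1 gene of the 61 with an unadjusted p under 0.05. It read 10.59, 10.54 and 10.05 in wild type and 10.21, 9.88 and 9.76 in daDREAM, a difference of −0.44 (−0.87 to −0.02) with an unadjusted limma p of 0.0439 and an adjusted p of 0.998. As for Xbp1, wild-type replicate 3 lay below daDREAM replicate 1. The other Hspa5 probe sets differed by −0.21 and −0.12. Dnajb9, a partner of BiP, differed by −0.22 and Pdia6, a disulfide isomerase, by −0.18. Calr, a lectin chaperone, was the 1 gene of the 14 whose groups did not overlap (background 5.59%). It read 11.07 to 11.21 in wild type and 10.93 to 11.04 in daDREAM. Wild-type replicate 3 was the lowest wild-type array for 12 of these 14 genes and daDREAM replicate 1 the highest daDREAM array for 11. With the mean of the hybridization controls as a covariate in limma, 3 of the 14 were lower and 11 higher, with a median of 0.12.

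Genes of endoplasmic reticulum-associated degradation, which work beside Herpud1 and Edem1, gave 6 lower and 5 higher of 11, with a median of −0.06. Without daDREAM replicate 3 they were 3 lower and 8 higher, and with the hybridization controls as a covariate 1 lower and 10 higher. Derl3, of the derlin family of membrane proteins that move substrates out for degradation, differed by 0.31 and Derl2 by −0.24. The other Derl2 probe set differed by −0.09. Sel1l, the scaffold of the degradation complex, differed by −0.30 (−0.67 to 0.06), and its other probe sets by −0.30, 0.0, 0.013 and 0.15. Os9, a lectin of that complex, was the 1 gene of the 11 whose groups did not overlap (background 5.59%). It read 8.36 to 8.48 in wild type and 8.58 to 8.76 in daDREAM.

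Genes of the PERK and ATF4 arm and of the amino acid response, which work beside Atf4, Ddit3 and Trib3, gave 10 higher and 7 lower of 17, with a median of 0.02. Asns, the asparagine synthetase gene that ATF4 induces, differed by 0.01, and Ppp1r15a, which reverses the phosphorylation of eIF2α, by 0.08. Psat1, a serine synthesis enzyme, differed by −0.26, Slc7a11, a cystine transporter, by −0.25, and Atf3, a stress-induced transcription factor, by 0.28. Both Slc7a11 (mean 3.78 over all arrays) and Atf3 (mean 4.15) were dim here. The other probe set of Psat1 differed by −0.43 and that of Slc7a11 by 0.04. Groups did not overlap for 3 of the 17 (background 5.59%), Atf3, Sesn2 and Eif2ak1, all with the higher values in daDREAM. With median centring the list was 9 lower and 8 higher, beside 55.1% lower among all genes. With the hybridization controls as a covariate it was 5 lower and 12 higher.

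**Figure D4:**
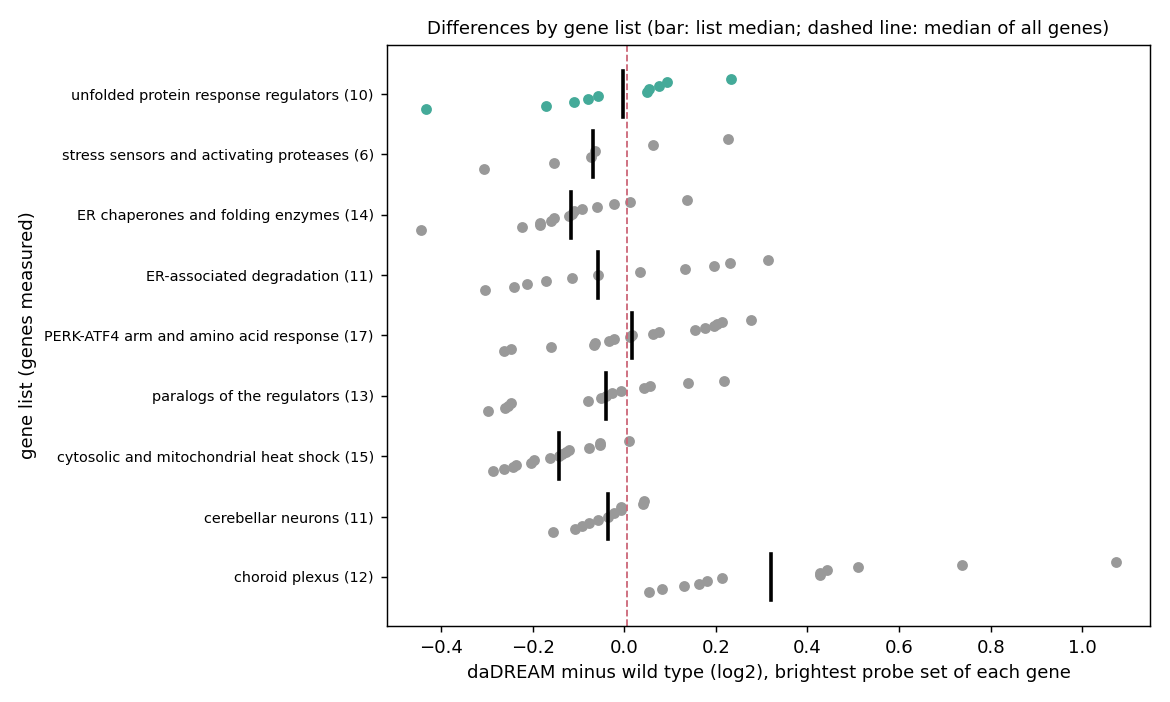
Difference of each gene's brightest probe set, daDREAM minus wild type on the log2 scale, by gene list, with a bar at the list median and a dashed line at the median of all genes. The regulators lie on both sides of 0, the endoplasmic reticulum chaperones have a median of −0.12, and the choroid plexus markers have a median of 0.32.

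The genes whose levels over the 6 arrays were most like those of Xbp1, among 6931 genes with a mean of at least 7, were Msl1, Gm2694, Tgs1, Vrk3 and Gatc, with Pearson correlations from 0.985 to 0.992. For Atf4 they were Mta3, Fam104a, Lrwd1, Zfand3 and Csdc2, with 0.969 to 0.986. None of these is one of the regulators, but Sdf2l1, Creld2, Edem1 and Trib3 had means below 7 and were not candidates. Atf4 had a correlation of −0.91 with Herpud1, −0.90 with Atf6 and 0.83 with Sdf2l1. These describe 6 arrays that share genotype and hybridization differences.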

How the data were processed

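The values deposited by the authors are log2 levels of probe sets on 6 Affymetrix Mouse Genome 430 2.0 arrays. Per the submitters' processing notes they were made with RMA from the affy package (versions not given in the sources used here). RMA gives all arrays one distribution of probe intensities, so a shift common to most genes cannot be seen. Genotypes and replicate numbers came from the sample titles.

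The 10 genes, the gene lists and the tests were chosen with earlier results of these data known. The 64 control probe sets were left out, and the other 45037 were tested in 1 fit, wild type against daDREAM with 3 arrays each, by lmFit and eBayes of limma 3.58.1 (R 4.3.3), with Benjamini-Hochberg adjustment over all of them and a threshold of 0.05. The fit was tested on simulated data with independent noise and added differences larger than any of the regulators in the main fit. That simulation held no effect shared by the probe sets of an array, so how the fit handles such effects was not tested. The platform annotation pairs 34945 of them with a single symbol and 932 with more than one, while 9160 carry no symbol. All 10 genes carry the same symbol in RefSeq. A gene is represented by its probe set of highest mean over the 6 arrays. The number of arrays limits the precision.

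Named genes are all 10 regulators, the 3 genes of largest difference in each list, Hspa5, Ern1, Eif2ak3, Ppp1r15a, Asns and Atf6b, the most abundant marker of each cell type list, and the 5 genes most like Xbp1 and Atf4. Calr, Os9, Sesn2 and Eif2ak1 were named after their values were seen, because their groups did not overlap. Alternatives were quantile normalization and median centring, a trended and robust prior, a minimum mean level of 5, leaving out probe sets that match several transcripts, the mean over a gene's probe sets, the mean of the hybridization controls as a covariate, the replicate number as a block, and leaving out each array.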

Additional observations from a re-analysis of the deposited data

How the results depend on the processing

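No regulator passed the adjusted threshold in limma under any alternative. The count of regulator probe sets at an unadjusted p under 0.05, which was 2, became 1 with median centring (1.71% of all probe sets) and 1 with a trended and robust prior (1.77%). With a minimum mean level of 5 it was 0 of 15 (2.01%), where the Xbp1 pair had unadjusted limma p of 0.05003 and 0.0565 with unchanged differences. The count was 1 without probe sets that match several transcripts, a setting for which the share of all probe sets was not computed. That setting left out the brightest Xbp1 probe set, 1437223_s_at, and kept the dim 1420012_at. When 1 array was left out, the count was 0 to 5. It was 5 without daDREAM replicate 1 (16.1% of all probe sets), 3 without wild-type replicate 3 (2.78%) and 0 without any one of the other arrays, beside 1.81% of all probe sets with every array. Samples that share a replicate number did not deviate together in every case (correlations of 0.119, −0.281 and 0.323). Whether they share more than a number was not tested. With the replicate number as a block the count was 3 (2.43% of all probe sets). Taking the mean of the hybridization controls as a covariate, the count was 3, but 10471 of all probe sets had an unadjusted p under 0.05, and the signs turned to 0.040 for Xbp1, −0.13 for Atf4, 0.38 for Atf6, −0.022 for Ddit3, 0.31 for Herpud1, −0.23 for Sdf2l1, 0.12 for Manf and −0.046 for Edem1, and to −0.35 for Cd79a, 0.36 for Derl2, −0.46 for Derl3, 0.31 for Dnajb9, 0.68 for Eif2ak3, 0.50 for Ern1, 0.42 for Herpud2, 0.074 for Hspa5, 0.087 for Hsph1, 0.50 for Mbtps2, 0.10 for Pdia6, 0.51 for Psat1, 0.029 for Sel1l and 0.28 for Trib2. The mean over a gene's probe sets turned Atf4 to −0.091, Trib3 to 0.07, Asns to −0.042 and Eif2ak3 to 0.049, and median centring turned Asns to −0.013. Leaving out 1 array gave ranges that crossed 0 for Creld2 (−0.17 to 0.25), Ddit3 (−0.023 to 0.11), Herpud1 (−0.25 to 0.037), Manf (−0.26 to 0.062), Sdf2l1 (−0.087 to 0.25), Trib3 (−0.16 to 0.042), Alas2 (−0.46 to 0.057), Asns (−0.048 to 0.047), Atf6b (−0.09 to 0.28), Eif2ak3 (−0.30 to 0.11), Ern1 (−0.41 to 0.18) and Ppp1r1b (−0.067 to 0.12). The cause was not tested. The brightest Xbp1 probe set kept its sign when any 1 array was left out, from −0.59 to −0.30, while the mean over the Xbp1 probe sets differed by −0.025. Dim probe sets carry no detection call, and differences on them are compressed.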

Other observations

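Heat shock genes of the cytosol and mitochondria answer unfolded proteins outside the endoplasmic reticulum. They were lower in daDREAM in 14 of 15 measured, with a median of −0.14 beside 0.0067 for all genes. All 15 had a mean level of at least 5, and of all genes at that level 53.5% were lower, with a median of −0.013. In limma 0 passed the adjusted threshold (background 0%) and 0 had an unadjusted p under 0.05 (background 1.42%). Hspe1, a mitochondrial co-chaperonin, differed by −0.29 and was the 1 gene of the 15 whose groups did not overlap (background 5.59%). Hspb1, a small heat shock protein gene, differed by −0.26, and Hsph1, a nucleotide exchange factor gene, by −0.24. On their other probe sets, Hspe1 differed by −0.03 with overlapping groups, Hspb1 by −0.19 and Hsph1 by −0.16. Without wild-type replicate 3 the median was −0.23. Wild-type replicate 3 was the lowest wild-type array for 14 of the 15, and taking the mean of the hybridization controls as a covariate, 4 were lower and 11 higher.

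Paralogs of the regulators gave 9 lower and 4 higher of 13 measured, with a median of −0.04. Herpud2 differed by −0.30, Trib2 by −0.26 and Trib1 by −0.25. On their other probe sets, Herpud2 differed by 0.10 and 0.0033, Trib2 by 0.09 and 0.03, and Trib1 by −0.20. Without wild-type replicate 1 the paralogs were 6 lower and 7 higher, and without wild-type replicate 3 they were 12 lower and 1 higher. They were 5 lower and 8 higher after renewed quantile normalization, and 3 lower and 10 higher taking the hybridization controls as a covariate. Among markers of other tissues, Ttr, the main choroid plexus gene, read 12.47 ± 0.22 in wild type and 12.90 ± 0.10 in daDREAM (SD, n = 3 each). Cd79a of B cells read 4.98 and 5.12, Ppp1r1b of the forebrain list 9.02 and 9.07, and Alas2 of red cells 6.33 and 6.09. The other forebrain list genes were dimmer over all arrays: Rgs9 7.1, Emx1 5.19, Drd1 4.02, Neurod6 3.05 and Tbr1 2.83. Whether Ppp1r1b reports forebrain tissue here was not tested. The lists were mixed: 1 lower and 3 higher in daDREAM of 4 plasma and B cell markers, 2 lower and 4 higher of 6 forebrain markers, and 2 lower and 2 higher of 4 blood markers.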
